A study of Homo sapiens with 5 samples.

Results

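The genes of the tumour necrosis factor (TNF) ligand and receptor superfamilies were followed in KM-H2, an established Hodgkin lymphoma cell line of B cell origin. Members were the genes whose symbol starts with TNFSF or TNFRSF, plus TNF, LTA, LTB, LTBR, CD27, CD40, CD40LG, CD70, FAS and FASLG. Of these, 32 of the 7713 genes named on the array had a probe set: 12 ligands and 20 receptors, with 1 probe set each. CD40LG is not analysed here. Cells were treated for 16 hours either with LY294002 at 30 uM, an inhibitor of phosphoinositide 3-kinase that is also known to bind mTOR and BET bromodomain proteins (2 arrays), or with the solvent DMSO alone (3 arrays). All cells grew in the same serum-supplemented medium, and the results describe 1 cell line. The labels do not say whether replicates came from separate cultures. The p-values therefore reflect the variation among these arrays alone, which may be technical.

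Ligands of this family are mostly membrane proteins that act as trimers, and some are cut from the surface by metalloproteases. Their receptors fall into those with an intracellular death domain, which can recruit FADD or TRADD and start caspase signalling, those that bind TRAF adaptors and feed the NF-kB and MAP kinase pathways, and decoy receptors that bind ligand without signalling. CD30, the product of TNFRSF8, is the surface marker by which Hodgkin and Reed-Sternberg cells are commonly recognised. Hodgkin cells are also known for CD40, for lymphotoxin alpha and for constitutive NF-kB activity.

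The log2 medians of the arrays were 6.26 to 6.29. Between pairs of arrays Pearson's r over all probe sets was 0.996 to 0.998 within a group and 0.989 to 0.992 across groups. Of 12 markers chosen for B-lineage Hodgkin cells 10 were measured. MS4A1 (CD20) had values of 10.24 to 10.57 with DMSO and 9.25 to 9.59 with LY294002, and CD74, the invariant chain of MHC class II, of 11.78 to 12.06 on all arrays. The B cell receptor gene CD79B stayed at 5.17 to 5.19, below the array medians. CD3D, a T cell gene, was at 8.70 to 8.97. For the 9 T and NK cell markers, the mean log2 level was 6.46 to 6.50 with DMSO and 6.31 to 6.42 with LY294002. For the 5 monocyte markers it was 5.16 to 5.19 and 5.11 to 5.20. The 6 stromal and epithelial markers had means of 5.06 to 5.13 with DMSO and 4.91 to 4.997 with LY294002. Of these 20 markers of other cells, 0 passed the limma threshold, against 0.908% of all genes. At an unadjusted p under 0.05 there were also 0, against 17.1%. Their differences were mostly negative: all 9 T and NK cell markers, 4 of the 5 monocyte markers and all 6 stromal and epithelial markers. Over all genes 55.5% were below 0. Without overlap, 2 of the 9, 0 of the 5 and 3 of the 6 lay lower, against 13.4% of all genes. The part of these levels in the results was not tested.

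LY294002 was compared with DMSO by limma over all probe sets, and a gene counted as called at a Benjamini-Hochberg adjusted p under 0.05. Of the 32 family genes 0 were called, against 0.908% of all genes. The family gene with the smallest adjusted p was CD70, at 0.0576. At an unadjusted p under 0.05 there were 3 members higher with LY294002 (CD70, TNF and TNFRSF14) and 5 lower (FAS, TNFSF4, TNFRSF8, TNFRSF17 and TNFSF10), while 10.6% and 6.5% of all genes lay past that line in the same directions. The 2 treated arrays lay above every DMSO array for 5 members and below every DMSO array for 7. The background is 16.2% of genes above and 13.4% below. The largest differences in the family belonged to TNFRSF8 and TNF, at opposite signs, and 1.52% and 1.54% of all genes had a larger one.

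**Figure D1:**
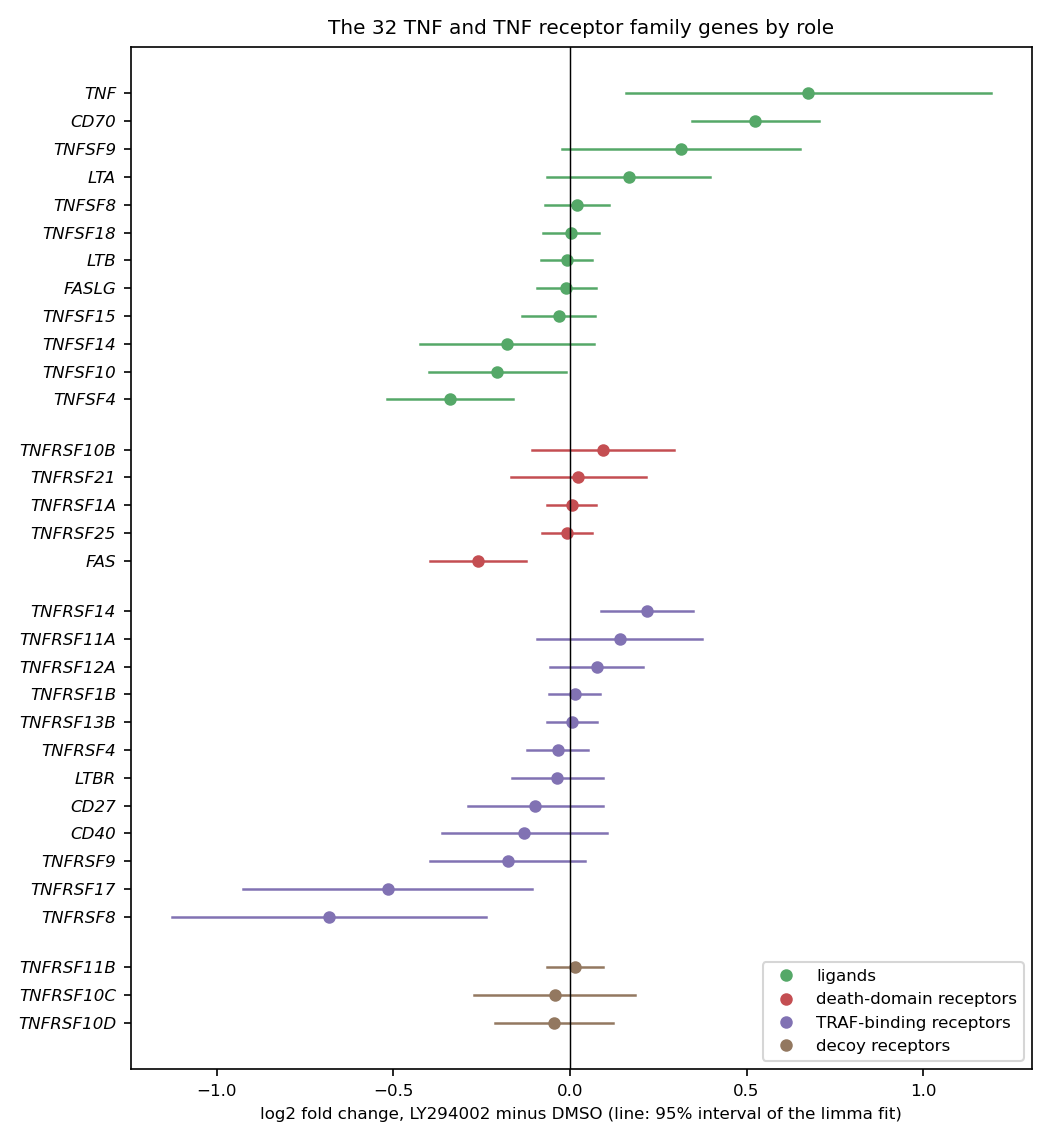
Log2 fold change of the 32 family genes, LY294002 minus DMSO, grouped by role, with the 95% interval of the limma fit as a line (3 DMSO and 2 LY294002 arrays). TNF, CD70 and TNFSF9 stand highest among ligands, and TNFRSF8, TNFRSF17 and FAS lowest among receptors; 0 genes passed the adjusted threshold.

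TNFRSF8 encodes CD30. Its probe set read 8.13, 8.49 and 8.09 on DMSO replicates 1, 2 and 3, and 7.71 and 7.39 on LY294002 replicates 1 and 2. Both LY294002 arrays lay below the lowest DMSO array, and the gap of 0.37 to it is close to the spread of 0.40 among the DMSO arrays. The log2 difference was -0.68 ± 0.17 (SE), a 1.6-fold lower value, with a 95% interval of -1.13 to -0.24 (limma adjusted p = 0.157). Leaving out 1 array at a time gave -0.84 to -0.52. In these bulk samples, fewer cells with the transcript and less of it per cell cannot be told apart. TNFSF8, the ligand of CD30, read 7.09 on DMSO replicate 1 and 7.15 on each of the other 4 arrays, with a log2 difference of 0.021 and an interval of -0.07 to 0.11.

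The B-lineage and Hodgkin markers, a list that holds TNFRSF8 itself, differed in both directions. MS4A1 read 10.57, 10.43 and 10.24 with DMSO and 9.59 and 9.25 with LY294002, a difference of -0.999 ± 0.15 (adjusted p = 0.073). CCR7, a chemokine receptor, read 8.62, 9.17 and 9.08 with DMSO and 10.13 and 10.06 with LY294002. The difference was 1.14 ± 0.18 (limma adjusted p = 0.0776), and 0.97 without DMSO replicate 1, the lowest array. IRF4, a transcription factor of Hodgkin cells and plasma cells, rose by 0.66 ± 0.07 (adjusted p = 0.0473, and 0.0875 to 0.215 with any 1 array left out). IRF4 was the 1 called gene of the 10 measured, against 0.908% of all genes. Without overlap, 2 of the 10 lay higher and 5 lower, against 16.2% and 13.4%, and the median was -0.10. Their part in the TNFRSF8 difference was not tested.

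The letters before the start of TNFRSF8 are shown because CD30 gave the largest difference of a receptor, and those of TNFRSF9, TNF and TNFSF9 because they allow a comparison with another TRAF-binding receptor and with ligands of the opposite sign. RefSeq promoter windows (GRCh38.p14) were found for 22 of the 32 members. Each line gives the 250 bases before the annotated start, 5′ to 3′, and capitals mark matches on either strand to the NF-kB consensus, to the AP-1 motif TGANTCA or to the FOXO motif GTAAACA.
TNFRSF8, chr1:12063053-12063302, plus strand: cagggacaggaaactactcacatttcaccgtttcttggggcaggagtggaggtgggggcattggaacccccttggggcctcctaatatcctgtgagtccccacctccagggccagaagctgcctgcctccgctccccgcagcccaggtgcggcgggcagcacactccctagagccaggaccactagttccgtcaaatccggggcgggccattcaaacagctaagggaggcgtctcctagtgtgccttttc
TNFRSF9, chr1:7940840-7941089, minus strand: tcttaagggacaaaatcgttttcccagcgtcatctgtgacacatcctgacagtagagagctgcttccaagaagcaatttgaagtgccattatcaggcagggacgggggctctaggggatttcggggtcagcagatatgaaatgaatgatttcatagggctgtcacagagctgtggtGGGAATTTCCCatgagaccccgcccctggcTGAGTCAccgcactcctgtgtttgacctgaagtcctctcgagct
TNF, chr6:31575315-31575564, plus strand: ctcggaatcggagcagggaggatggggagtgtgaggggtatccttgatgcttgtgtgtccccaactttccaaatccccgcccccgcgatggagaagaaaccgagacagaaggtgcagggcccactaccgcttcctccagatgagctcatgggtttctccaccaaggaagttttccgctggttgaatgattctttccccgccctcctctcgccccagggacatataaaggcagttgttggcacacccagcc
TNFSF9, chr19:6530776-6531025, plus strand: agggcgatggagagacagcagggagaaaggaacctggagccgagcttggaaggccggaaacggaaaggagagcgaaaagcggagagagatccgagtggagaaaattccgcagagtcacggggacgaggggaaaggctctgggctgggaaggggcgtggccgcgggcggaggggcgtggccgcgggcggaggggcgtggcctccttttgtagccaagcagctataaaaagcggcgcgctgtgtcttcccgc

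TNFRSF9 holds overlapping matches to the NF-kB consensus that begin 74 and 73 bases before the start, and an AP-1 match, TGAGTCA, at 44 bases before it. In TNFRSF8 an AP-1 match of the same letters begins at base 2 of the transcript, just past the stretch shown. The stretches of TNF and TNFSF9 hold no match to the 3 motifs, which says only that these letters are not in these windows. The whole window of 300 bases runs from 250 before the start to 50 after it, and a gene counted if the window of any annotated start matched. On this count 7 of the 22 members had an NF-kB match against 7.09% of the 27305 genes in the promoter table. Several starts were listed for 4 members, FAS, LTA, LTB and TNFSF14, all among these 7. FAS and LTA had the NF-kB match at some of their starts only. An AP-1 match was found in 6 members and in 9.37% of genes, and a FOXO match in 1 member, LTB, and in 4.19% of genes. The members with NF-kB letters were LTA, LTB, TNFSF14, FAS, TNFRSF25, TNFRSF14 and TNFRSF9. Their log2 differences ran from -0.26 (FAS) to 0.22 (TNFRSF14), so matches occurred beside values of both signs. Promoters of CD70, TNFSF8, CD40 and TNFRSF17 are not analysed here.

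Among ligands, CD70, which engages CD27 on lymphocytes, separated the groups most clearly. The values were 10.24, 10.27 and 10.43 on the DMSO arrays and 10.81 and 10.87 on the LY294002 arrays. Every LY294002 value exceeded every DMSO value, by a gap of 0.38 between the nearest arrays against a spread of 0.18 among the DMSO arrays. The log2 difference was 0.52 ± 0.07, or 1.44-fold (interval 0.34 to 0.71, limma adjusted p = 0.0576). CD70 was called after quantile normalization (adjusted p = 0.0406), after median centring (0.0422) and without the dimmest 40% of probe sets (0.035). With 1 array left out the adjusted p was 0.12 to 0.212, and with the replicate number as a block it was 0.348. CD27, the receptor, read 6.28, 6.34 and 6.23 with DMSO and 6.09 and 6.28 with LY294002, and the groups overlapped (-0.10, and -0.0013 without LY294002 replicate 1).

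TNF, the founding cytokine of the family, read 7.61, 8.18 and 8.13 with DMSO and 8.62 and 8.68 with LY294002. DMSO replicate 1 stood apart from the other two control arrays, and both LY294002 arrays lay above all 3. The log2 difference was 0.68 ± 0.19, or 1.6-fold (interval 0.16 to 1.19, limma adjusted p = 0.199), and 0.49 without DMSO replicate 1 (adjusted p = 0.0858). Its receptors gave no difference of that size: TNFRSF1A was listed at 5.39 on 4 arrays and 5.38 on DMSO replicate 3, and TNFRSF1B at 4.73 on 4 arrays and 4.76 on LY294002 replicate 1. The 95% intervals were -0.07 to 0.07 for TNFRSF1A and -0.06 to 0.09 for TNFRSF1B, both on probe sets below the array medians.

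TNFSF9, the ligand of TNFRSF9 (CD137), a costimulatory receptor of T cells, read 7.82, 8.13 and 8.18 with DMSO and 8.30 and 8.42 with LY294002. DMSO replicate 1 was again the lowest, and the groups did not overlap. The log2 difference was 0.31 ± 0.13 (interval -0.02 to 0.65, limma adjusted p = 0.326), and 0.20 without DMSO replicate 1. TNFRSF9 itself read 8.34, 8.58 and 8.39 with DMSO and 8.24 and 8.28 with LY294002, lower on both treated arrays than on any control, with a difference of -0.18 ± 0.08 (adjusted p = 0.386), and -0.10 without DMSO replicate 2.

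LTA, lymphotoxin alpha, read 8.83, 9.02 and 8.94 with DMSO and 8.999 and 9.20 with LY294002. LY294002 replicate 1 fell inside the DMSO range, and the difference was 0.17 ± 0.09 (interval -0.06 to 0.40). Leaving out LY294002 replicate 2 gave 0.067, and leaving out replicate 1 gave 0.27. LTB, its partner in the membrane-bound heterotrimer that binds LTBR, stayed between 6.16 and 6.19 on all 5 arrays, and LTBR between 5.85 and 5.96. TNFSF4, the OX40 ligand, went the other way. It read 5.70, 5.74 and 5.63 with DMSO and 5.27 and 5.43 with LY294002, without overlap, on a probe set below the array medians. The difference was -0.34 ± 0.07, or 1.27-fold lower (interval -0.52 to -0.16, limma adjusted p = 0.111). TNFRSF4, the OX40 receptor, gave -0.035 (interval -0.12 to 0.05).

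TNFSF10, the death ligand TRAIL, had values of 5.98, 6.20 and 6.09 with DMSO and 5.87 and 5.90 with LY294002, which did not overlap, and a difference of -0.21 ± 0.07 (adjusted p = 0.271). FASLG, the ligand of FAS, lay between 4.56 and 4.60 on all arrays. The other ligands were TNFSF14 (LIGHT) at -0.18, TNFSF15 at -0.032 and TNFSF18, the ligand of GITR, at 0.0024. In all 3 the groups overlapped.

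**Figure D2:**
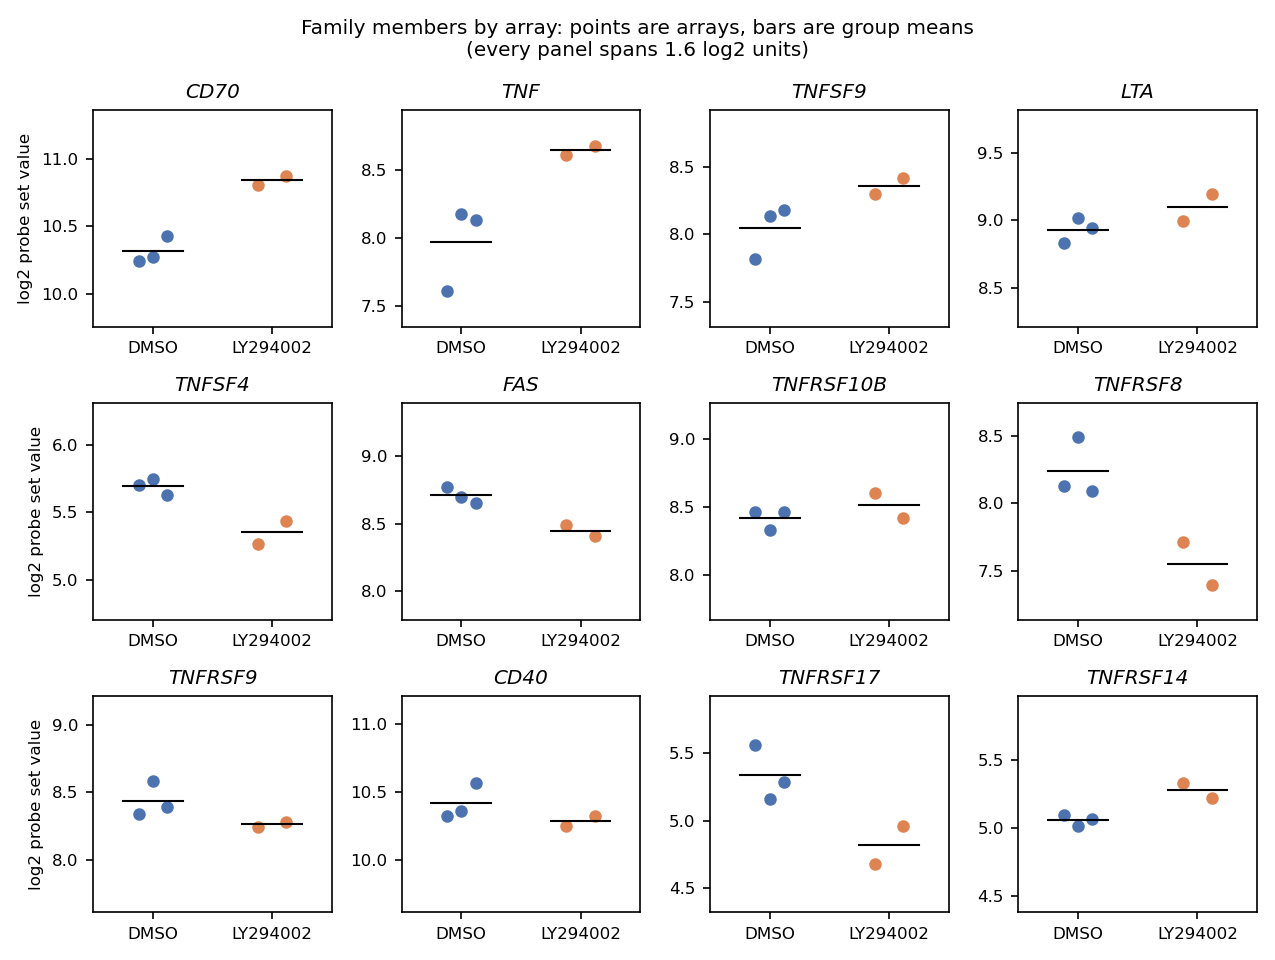
Log2 probe set value of 12 family genes on each array, with DMSO in blue, LY294002 in orange and bars for group means; every panel spans the same 1.6 log2 units. CD70, TNF and TNFSF9 lie higher on both LY294002 arrays, TNFRSF8, TNFRSF17, FAS and TNFSF4 lie lower, and DMSO replicate 1, the leftmost blue point, is the lowest for TNF and TNFSF9.

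Of the death-domain receptors 5 were measured, and their median log2 difference was 0.0043, with 3 above 0 and 2 below. FAS, the receptor that starts the extrinsic death pathway on binding FASLG, read 8.77, 8.70 and 8.65 with DMSO and 8.49 and 8.41 with LY294002. The groups did not overlap, and the gap of 0.17 between the nearest arrays exceeded the DMSO spread of 0.12. The difference was -0.26 ± 0.05, or 1.2-fold lower (interval -0.40 to -0.12, limma adjusted p = 0.11), and FAS was called after quantile normalization (-0.33, adjusted p = 0.0465). TNFRSF10B, a death receptor for TRAIL, read 8.46, 8.33 and 8.46 with DMSO and 8.60 and 8.42 with LY294002, with overlap and an interval of -0.11 to 0.30. Its difference of 0.094 was 0.004 without LY294002 replicate 1. TNFRSF21 differed by 0.024. TNFRSF25 was listed at 6.25 on all 3 DMSO arrays and at 6.23 and 6.25 on the LY294002 arrays, so that its groups count as separate at a difference of -0.0091. The decoy receptors for TRAIL, TNFRSF10C and TNFRSF10D, gave -0.043 and -0.046. TNFRSF10C read 4.59 and 4.86 on the LY294002 arrays, on either side of the DMSO mean of 4.77, and leaving them out in turn gave 0.09 and -0.18. TNFRSF11B (osteoprotegerin), a decoy for RANK ligand, gave 0.014.

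TRAF-binding receptors had a median of -0.036 over 12 genes, 5 of them above 0 and 7 below. CD40, through which helper T cells activate B cells, read 10.32, 10.36 and 10.57 with DMSO and 10.25 and 10.32 with LY294002. LY294002 replicate 2 overlapped the lower controls, and the interval was -0.36 to 0.10. The difference of -0.13 was -0.054 without DMSO replicate 3. TNFRSF17 (BCMA), a receptor of plasma cells, read 5.56, 5.16 and 5.29 with DMSO and 4.68 and 4.96 with LY294002. These values lie without overlap and below the array medians, and the difference was -0.52 ± 0.15, or 1.43-fold lower (limma adjusted p = 0.211). TNFRSF14 (HVEM), the receptor of LIGHT, chosen after its values were seen, read 5.10, 5.02 and 5.07 with DMSO and 5.33 and 5.22 with LY294002. It was the highest receptor, at 0.22 ± 0.05 (adjusted p = 0.136). TNFRSF11A (RANK) stood at 0.14 and TNFRSF12A, the TWEAK receptor, at 0.08. TNFRSF13B (TACI), which like BCMA binds the B cell survival factors of the family, stood at 0.0056 with an interval of -0.07 to 0.08.

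The median log2 difference was -0.0036 for the 12 ligands and -0.022 for the 20 receptors, beside -0.0114 for all genes. Ligands and receptors therefore had nearly the same centre. The median size of the log2 difference, without its sign, was 0.17 for ligands and 0.061 for receptors, beside 0.076 for all genes. Only 10 members exceeded the array median on all 5 arrays. Among these, a grouping made after the values were seen, 5 of 5 ligands (CD70, LTA, TNF, TNFSF8 and TNFSF9) were above 0, with a median of 0.31. Of the 5 receptors (FAS, TNFRSF10B, CD40, TNFRSF8 and TNFRSF9), 4 were below 0, with a median of -0.18. Over all genes of that brightness 53.9% were above 0 and 46.1% below. TNFSF8 was at -0.025 after quantile normalization and at 0 without DMSO replicate 1. The other 9 kept their sign in the alternatives tried, which for TNFRSF10B leave out the one without probe sets holding identical values. These alternatives refit the same arrays, so a kept sign is no separate evidence. Among the other 22 members, 1 of 7 ligands was above 0 and 7 of 15 receptors were below. The planned filter on dim probe sets left 16 members. Of these, 5 of 7 ligands were above 0 and 7 of 9 receptors below, with medians of 0.17 and -0.098.

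Of 28 ligand and receptor pairs written down for the family, 16 had both genes measured. The ligand was above 0 and the receptor below in 3 of them: CD70 with CD27, TNFSF9 with TNFRSF9, and TNFSF8 with TNFRSF8. The reverse held in 2, TNFSF14 with TNFRSF14 and TNFSF10 with TNFRSF10B. Both were above 0 in 4 pairs and both below in 7. Pairs share genes, so they are not independent.

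**Figure D3:**
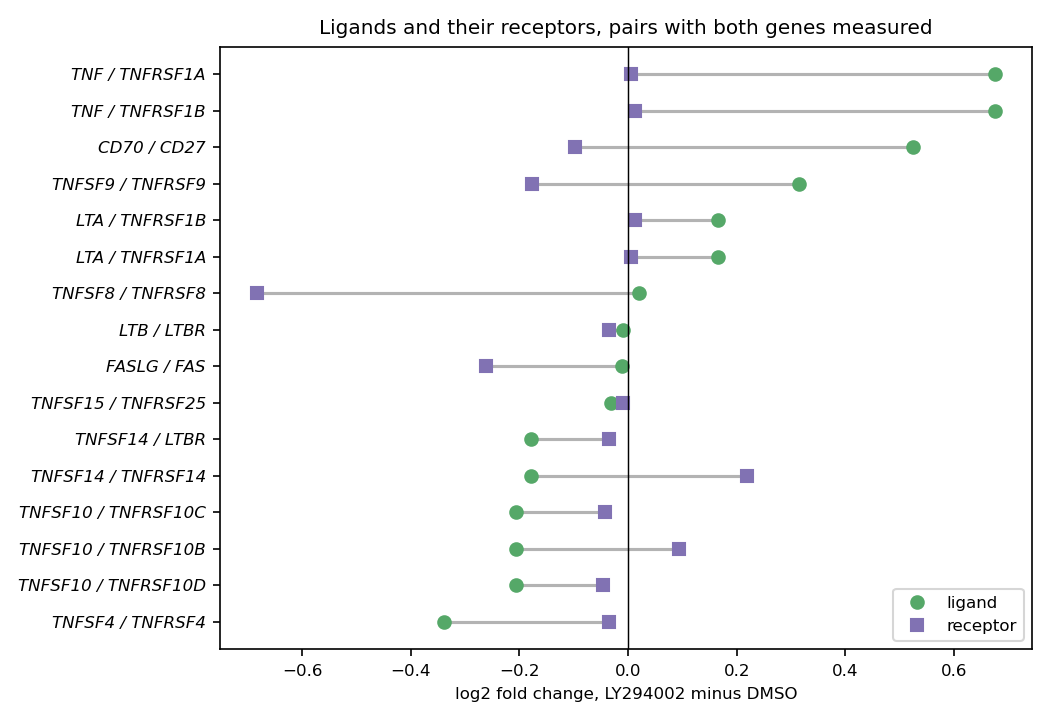
Log2 fold change, LY294002 minus DMSO, of the ligand (circle) and the receptor (square) in the 16 pairs with both genes measured. The widest gaps are those of TNF and TNFSF8 with their receptors, the first through the ligand at 0.68 and the second through TNFRSF8 at -0.68.

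Several members lie side by side in the genome, by the order of protein-coding genes in the RefSeq table. LTA, TNF and LTB follow each other on chromosome 6 with 0 genes between them, and gave 0.17, 0.68 and -0.0097. TNFSF9, CD70 and TNFSF14 follow each other on chromosome 19 with 0 genes between, and gave 0.31, 0.52 and -0.18. TNFRSF8 and TNFRSF1B are neighbours on chromosome 1, at -0.68 and 0.013. FASLG, TNFSF18 and TNFSF4 form another row on that chromosome, at -0.011, 0.0024 and -0.34. In each of these 4 rows at least 1 gene stood within 0.2 of 0. Only 19.5% of all genes differed by more than 0.197 in size, so a gene that near 0 is common in any row. Neither bound was part of the plan, and the 4 rows are those with a member that differed by over 0.3. In the other 3 rows of this kind no member differed by that much: LTBR and CD27 gave -0.036 and -0.098, TNFRSF10B, TNFRSF10C and TNFRSF10D gave 0.094, -0.043 and -0.046, and TNFSF15 and TNFSF8 gave -0.032 and 0.021.

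The genes that act below the receptors were taken from lists of the pathway. Of 23 TRAF and receptor adaptor genes 17 were measured and 0 were called, against 0.908% of all genes. At an unadjusted p under 0.05 there were 7 higher and 0 lower, against 10.6% and 6.5% of all genes. These shares include dim genes. Without the dimmest 40% of probe sets 14 of the 17 stayed, and 1064 of 4642 genes had an unadjusted limma p under 0.05 in either direction. In 10 of the 17 the treated arrays both exceeded every control and in 1 both lay below, against 16.2% and 13.4%, and the median difference was 0.14 beside -0.0114 for all genes. MAP3K14, the kinase NIK of the alternative NF-kB pathway, read 6.81, 6.83 and 6.98 with DMSO and 7.41 and 7.34 with LY294002, a difference of 0.50 ± 0.06 (limma adjusted p = 0.0576). TANK, a TRAF-binding regulator, read 6.66, 6.76 and 6.84 with DMSO and 7.30 and 7.12 with LY294002. It gave 0.45 ± 0.08 (0.0897). TRAF1, an adaptor of CD30 and other receptors that was chosen after its values were seen, gave 0.38 ± 0.07 (0.0994).

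Of 16 genes of death signalling and its inhibitors 10 were measured, with a median of 0.0045 (-0.016 to 0.023 with 1 array left out) and 0 called, against 0.908% of all genes. BIRC2, the ubiquitin ligase cIAP1 that holds NIK low, read 8.35, 8.56 and 8.45 with DMSO and 9.21 and 8.996 with LY294002. The difference was 0.65 ± 0.09 (limma adjusted p = 0.0723). It was the 1 gene of the 10 with an unadjusted p under 0.05, or 10%, against 17.1% of all genes. FAIM2, an inhibitor of FAS signalling, read 6.19, 6.09 and 6.07 with DMSO and 5.91 and 6.03 with LY294002, at -0.15 ± 0.06, and -0.088 without LY294002 replicate 1. CASP8, CASP10 and CFLAR, components of the complex at death receptors, gave 0.13 (0.061 without LY294002 replicate 1), 0.014 and -0.0069.

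Among 15 measured genes that TNF is known to induce, the median was 0.20, with 0 called against 0.908% of all genes. At an unadjusted p under 0.05 there were 8 higher and 0 lower, against 10.6% and 6.5%. All 15 stayed without the dimmest 40% of probe sets, where 1064 of 4642 genes had an unadjusted limma p under 0.05 in either direction. The shares of all genes include dim genes and are not matched to this list. For 9 of the 15 the LY294002 arrays lay above all DMSO arrays and for 2 below, against 16.2% and 13.4%. IER3, an immediate early gene, read 7.17, 7.59 and 7.62 with DMSO and 8.61 and 8.46 with LY294002, a difference of 1.07 ± 0.16 (adjusted p = 0.0758). NFKBIA, the inhibitor IkB alpha, read 9.85, 10.46 and 10.48 with DMSO and 11.05 and 10.98 with LY294002, at 0.75 ± 0.22 (0.206). NFKB2, the precursor of p52, chosen after its values were seen, gave 0.74 ± 0.13 (limma adjusted p = 0.0876). Others named after their values were seen did not rise alike. NFKBIE and CCL22, the 2 that lay below all DMSO arrays, gave -0.39 ± 0.15 and -0.28 ± 0.11, and TNFAIP3 gave 0.074 with overlap. DMSO replicate 1 was the lowest array for IER3 and NFKBIA, as for TNF; without it their differences were 0.93 and 0.54. The metalloprotease ADAM10, which cuts CD30 and other members from the cell surface, read 9.21, 9.32 and 9.20 with DMSO and 9.87 and 9.61 with LY294002, at 0.50 ± 0.09 (limma adjusted p = 0.0995). ADAM9 read 4.98, 5.03 and 4.94 with DMSO and 5.26 and 5.03 with LY294002, with overlap. Its difference was 0.17 ± 0.08, with 0.051 without LY294002 replicate 1 and 0.28 without LY294002 replicate 2. Of the 6 measured shedding genes 0 were called, against 0.908% of all genes, and 2 were higher and 0 lower at an unadjusted p under 0.05, against 10.6% and 6.5%. Their median was 0.13, and 0.057 without LY294002 replicate 1. Below 0 were 2 of the 6, named after their values were seen: ADAM17 at -0.084 and TIMP3 at -0.055, both with overlap.

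The pathway calls turned on the setting. MAP3K14, TANK, BIRC2, IER3, NFKB2 and ADAM10 were all called after quantile normalization, where 3.88% of all genes were called, and without probe sets holding identical values within a group, where 10.7% were. Without dim probe sets 4 of the 6 were called, against 4.37% of all genes, and after median centring 2, against 1.91%. With an intensity trend and with probe set means 0 were called, against 1.31% and 1.13% of all genes. These 6 genes were picked by the size of their differences or after their values were seen, so the counts do not describe their lists. With array weights 0 of them were called (limma adjusted p of 0.123 to 0.165), as with the replicate block (0.348 to 0.46), without variance moderation (0.307 to 0.37) and with any 1 array left out (0.0753 to 0.329).

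**Figure D4:**
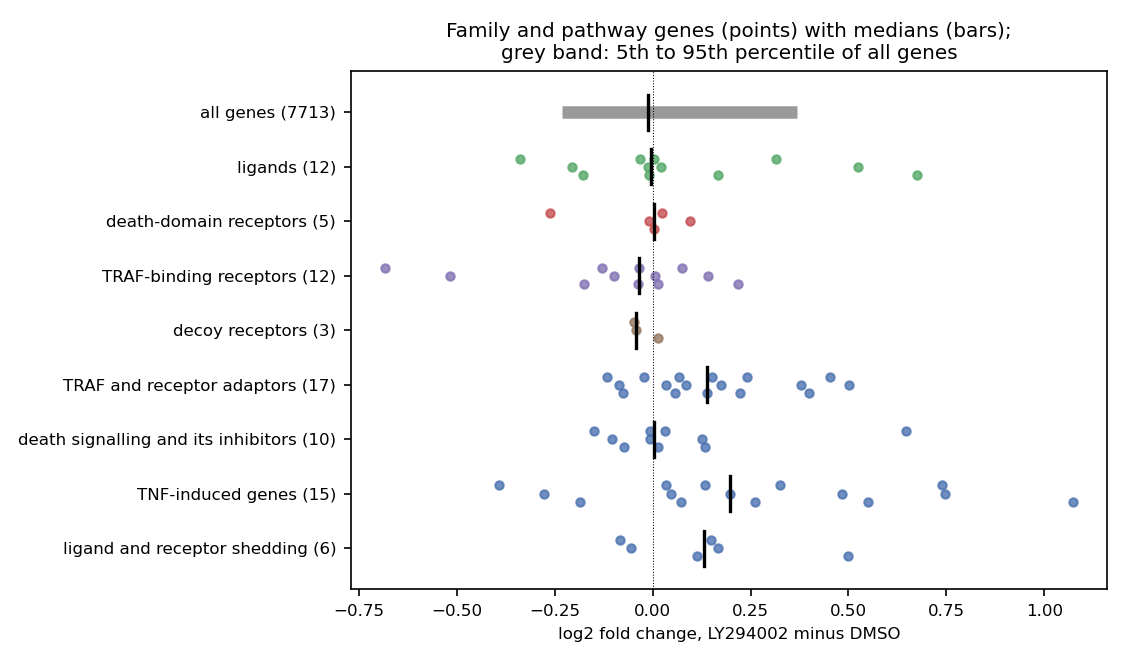
Log2 fold change, LY294002 minus DMSO, of the family genes by role and of 4 pathway lists, with a bar at each median and a grey band from the 5th to the 95th percentile of all 7713 genes (-0.23 to 0.37). The medians of the TNF-induced genes, the adaptors, the shedding genes and the death signalling genes are 0.20, 0.14, 0.13 and 0.0045, and those of the 4 family roles lie between -0.043 and 0.0043.

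The genes whose pattern over the 5 arrays was most like that of TNFRSF8, among 3862 genes at or above the median level, were GFRA3 (Pearson's r = 0.998), VDAC1 (0.996), ADAMDEC1 (0.994), WASF3 (0.993) and ABCE1 (0.993). The 5 points are the same arrays in the same 2 groups, TNFRSF8 being highest on DMSO replicate 2 and lowest on LY294002 replicate 2, and no p is given. Of these, ADAMDEC1 differed by -0.54 and VDAC1 by -0.32, and GFRA3 by -0.020.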

How the data were processed

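KM-H2 cells were profiled on Affymetrix arrays from biotin-labelled cRNA, per the labels' protocols. The deposited table holds log2 probe set values that the authors made with affy, an R package, per the submitters' processing notes. The sources used here do not give its version, background correction or summary method. The series planned triplicates and left out 1 array for high background. Values were used as deposited. Of 8793 probe sets, 47 controls were left out and 8746 fitted. The platform annotation gave 1 symbol to 7840, several to 388 and none to 518; a gene with several probe sets was represented by its brightest, giving 7713 genes. Members were all found in the RefSeq table. Probe sets differ in affinity, so levels are not compared between genes.

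LY294002 was compared with DMSO by limma 3.58.1 (lmFit, eBayes; R 4.3.3, statmod 1.5.0), group as the only term, 3 residual degrees of freedom, Benjamini-Hochberg over all 8746 probe sets, threshold 0.05. Errors beside log2 differences are standard errors of this fit, and intervals are its 95% intervals. The script was tested on simulated data. That test drew independent normal values, so it did not cover the identical values that 38.1% of genes hold within a group. Members and gene lists were chosen with earlier results of these data known. Values on every array are given for TNFRSF8, separated members with a difference of at least 0.25, the 6 brightest members and most partners, and of each pathway list the 2 largest differences; pathway genes chosen after their values were seen are marked as such in the text. Motifs were searched on both strands. For arrays, their number limits the precision. Plots used Python 3.11.15 and matplotlib 3.10.9. The alternatives were quantile normalization, median centring, a filter on dim probe sets, array weights, an intensity trend with robust prior, the replicate block, no moderation, probe set means, each array left out, and, added after seeing the data, leaving out probe sets that repeat a value within a group.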

Additional observations from a re-analysis of the deposited data

How the results depend on the processing

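The number of genes called was 70 as reported, 299 after quantile normalization, 147 after median centring, 203 without the dimmest 40% of probe sets, 17 with array weights, 1 without variance moderation, and 510 of 4771 without probe sets holding identical values within a group, an alternative chosen after seeing the data. Leaving out 1 array gave 0 to 4, with 946 to 2085 genes at an unadjusted p under 0.05. Family members called numbered 2 after quantile normalization (CD70 higher, FAS lower), 1 after median centring and 1 without dim probe sets (CD70 in both), and 4 of 22 without identical values (CD70 and TNF higher, TNFRSF8 and TNFSF4 lower). They numbered 0 under the other alternatives, each array left out included, with 5 to 9 members at an unadjusted p under 0.05. TNFRSF8 kept its sign throughout, and its -0.68 was called without identical values (limma adjusted p = 0.0263); elsewhere its adjusted p ran up to 0.482. This alternative drops probe sets of low spread, among them 10 of the 32 members. The receptor median minus the ligand median was -0.019, and -0.26 over the 16 members left without dim probe sets. Under at least 1 alternative 10 members, all within 0.05 of 0 as reported, changed sign or reached 0: FASLG, TNFSF18, TNFSF8, TNFRSF1A, TNFRSF21, LTBR, TNFRSF13B, TNFRSF1B, TNFRSF10C and TNFRSF10D. FASLG was at 0.0068 after quantile normalization and between -0.029 and 0.0083 with 1 array left out, TNFSF8 at -0.025 after quantile normalization, TNFRSF1A at -2.6e-05 after median centring and TNFRSF1B between 0 and 0.027 with 1 array left out. With the replicate number as a block 0 genes were called by limma and 820 had an unadjusted p under 0.05. The numbers name samples and no label says that they pair them. Over 7713 genes, the differences between replicates 1 and 2 of both groups had r = -0.107. Signal also limits the family: 21 of the 32 members were at or below the array median on every array.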

Other observations

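Family genes whose probe sets carry several symbols name no single gene and were left out of the members. The probe set shared by TNFSF13 (APRIL, a survival factor of plasma cells) and the TNFSF12-TNFSF13 readthrough read 5.89, 5.89 and 5.96 with DMSO and 5.65 and 5.82 with LY294002. Its groups did not overlap, and the difference was -0.18 ± 0.06 (limma adjusted p = 0.271). The probe set of TNFSF12 (TWEAK) and the same readthrough differed by -0.020, and that of TNFRSF6B, a decoy receptor for FASLG, and its RTEL1 readthrough by 0.048, both with overlapping groups.

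Identical values on arrays of a group were found for 10 of the 32 members and for 38.1% of all genes. Most of these members lie below the array medians, but TNFSF8 and TNFRSF10B do not. The 95% interval of the difference lay within 0.25 of 0 for 15 of the 32 members and 51.5% of all genes, and within 0.5 for 26 members and 85.2% of genes. For TNFRSF8, TNF and TNFRSF17 it reached past a log2 difference of 0.9 in size.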
